A study of Mus musculus with 14 samples.

Results

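Exoc3l, Ifi27l2a, Nxph4, Gpsm3 and Gngt2 are 5 of the 24340 genes listed in the deposited expression files. They were chosen by their RPKM values, which stood much lower in day 3 germ cells without the demethylases Jmjd1a and Jmjd1b (P3 DKO) than in day 3 controls (P3 Ctrl). All 5 passed the filter on low values (1 RPKM or more in 2 or more of the 14 libraries) and so belong to the 14772 genes that were tested. The difference between P3 DKO and P3 Ctrl selected the genes and is given for them as a description, with no test. That rule uses no values of the single knockouts, of wild type or of day 7, although earlier results of all libraries were known when the genes were picked.

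Germ cells had been taken from testes of C57BL/6 mice, in 7 groups of 2 libraries. At postnatal day 3 there were wild type (P3 WT, with no Cre named in the label), Vasa-Cre; Jmjd1a-/+; Jmjd1b-/+ (P3 Ctrl), Vasa-Cre; Jmjd1a-/-; Jmjd1b-/+ (P3 Jmjd1aKO), Vasa-Cre; Jmjd1a-/+; Jmjd1b-/- (P3 Jmjd1bKO) and Vasa-Cre; Jmjd1a-/-; Jmjd1b-/- (P3 DKO). At postnatal day 7 there were P7 Ctrl and P7 DKO, with the genotypes of the day 3 groups of the same name. Vasa-Cre acts in germ cells, and every group except P3 WT carries it together with at least 1 lost copy of each gene. No cell sort is named in the labels, nor are the animals behind each library, so p-values measure the spread between these samples only, which may be technical. RPKM, the unit of the deposited values, divides the reads of a gene by transcript length and by library size.

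Jmjd1a and Jmjd1b, listed as Kdm3a and Kdm3b, are demethylases of lysine 9 of histone H3, whose methylation marks silent chromatin. Between the 2 ages male germ cells leave their arrest and form the first spermatogonia, some of which keep stem cell properties while others move towards differentiation. The 5 genes have unlike roles. Nxph4 encodes a neurexophilin, a secreted glycoprotein of a family known as ligands of alpha-neurexins at synapses. Gpsm3 encodes a small GoLoco protein that binds inhibitory G protein alpha subunits in their GDP-bound form, and Gngt2 encodes the G protein gamma subunit known from cone photoreceptors. Exoc3l encodes a protein related to subunit Exoc3 of the exocyst, the complex that tethers secretory vesicles to the plasma membrane. Ifi27l2a is an interferon-inducible gene of the Ifi27 family of small hydrophobic proteins.

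The libraries carried germ cell transcripts throughout, with Ddx4 (Vasa) between 169.5 and 307 RPKM. Kdm3a stood at 28.4 and 26.3 RPKM in P3 Ctrl, 9.83 and 9.84 in P3 Jmjd1aKO and 12.1 and 14.3 in P3 DKO, and Kdm3b at 10.2 and 13.5 RPKM in P3 Ctrl, 4.72 and 7.51 in P3 Jmjd1bKO and 4.26 and 4.48 in P3 DKO. Replicate 2 of P3 Jmjd1aKO and replicate 2 of P3 Jmjd1bKO stood apart. The summed level of 12 Sertoli markers was 1013 and 1208 RPKM there and 120.2 to 328 RPKM in the other 12 libraries, and results on the single knockouts are therefore given with and without that pair. Estimated depth was lowest in P3 WT, at 15.0 and 16.5 M fragments (M, mega), and highest in P3 DKO, at 51.6 and 56.6 M, with 23.8 to 27.7 M in the day 7 libraries.

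In the comparison that selected them, Nxph4, Gpsm3, Gngt2, Exoc3l and Ifi27l2a kept between 21.4% (Ifi27l2a) and 35.6% (Gpsm3) of their mean P3 Ctrl level in P3 DKO. The value of Gpsm3 averages libraries at 19.3% and 52.0%. The genes past the threshold of limma's test whose libraries did not overlap between the groups were ordered by the size of the fall. Ifi27l2a was number 7 there, and Exoc3l, Nxph4, Gpsm3 and Gngt2 were numbers 9 to 12. By log2 fall alone, among all 14772 genes, Ifi27l2a was number 44, Exoc3l 48, Nxph4 50, Gpsm3 52 and Gngt2 53. The same comparison selected these genes, so their passing and their places describe the choice and are no test of it. Of all 14772 genes, 2.29% were lower and 2.18% higher in P3 DKO by limma at the same threshold. Both P3 DKO libraries lay below both P3 Ctrl libraries for 27.9% of all genes. In the order of called genes without overlap, Sox18, number 8 with a log2 change of -1.77, lay between Ifi27l2a and Exoc3l and was not among the chosen genes. It fell more than Exoc3l, Nxph4, Gpsm3 and Gngt2. Just outside the range stood Krt17, number 13, with -1.56 beside -1.56 for Gngt2. The entries ahead of Ifi27l2a included 1700015G11Rik (-2.23). In bulk RNA a lower level from fewer cells that express a gene and one from less RNA per cell cannot be told apart.

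Nxph4 lies on chromosome 10, 127525473 to 127534559 on the minus strand (GRCm38), and has 1 annotated transcript of 1675 nucleotides. Its level was 43.5 and 62.6 RPKM in P3 Ctrl, 43.4 and 36.5 in P3 WT, 42.5 and 38.6 in P3 Jmjd1bKO, 28.3 and 32.5 in P3 Jmjd1aKO and 14.3 and 18.5 in P3 DKO. At day 7 it was 22.5 and 22.4 RPKM in P7 Ctrl and 3.04 and 0.622 in P7 DKO. Every P3 DKO library lay below every other day 3 library, and both P7 DKO libraries lay below both P7 Ctrl libraries. Ordered by their means the groups ran from P3 Ctrl through P3 Jmjd1bKO, P3 WT, P3 Jmjd1aKO, P7 Ctrl and P3 DKO to P7 DKO, and among neighbours in this order only P3 Jmjd1bKO and P3 WT overlapped.

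Gpsm3 lies on chromosome 17, 34589806 to 34591754 on the plus strand, and shares 227 exonic bases with Pbx2, a homeobox gene on the same strand, so that some reads could be counted for either. Its level was 36.6 and 42.7 RPKM in P3 Ctrl, 48.0 and 42.1 in P3 WT, 39.7 and 43.4 in P3 Jmjd1bKO, 23.7 and 34.3 in P3 Jmjd1aKO and 7.64 and 20.6 in P3 DKO. At day 7 it was 69.8 and 73.1 RPKM in P7 Ctrl, the highest of all groups, and 7.07 and 4.27 in P7 DKO. The P3 DKO replicates differed more from each other than those of any other group, on both the RPKM and the log2 scale, yet both lay below every other day 3 library. The means fell in the order P7 Ctrl, P3 WT, P3 Jmjd1bKO, P3 Ctrl, P3 Jmjd1aKO, P3 DKO and P7 DKO, in which P3 WT overlapped P3 Jmjd1bKO and P3 Jmjd1bKO overlapped P3 Ctrl.

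Of the 5 genes, Gpsm3 alone had an entry in the RefSeq promoter table used here, and its promoter is shown because Gpsm3 fell at day 7 and moved with age in opposite directions in control and DKO cells. The 250 bases before its start, chr17:34589556-34589805 on the plus strand of GRCm38.p6, read as follows. The letters ACTTCC, the reverse complement of GGAAGT, the single form of an ETS site searched for here, are in capitals.
Gpsm3 promoter: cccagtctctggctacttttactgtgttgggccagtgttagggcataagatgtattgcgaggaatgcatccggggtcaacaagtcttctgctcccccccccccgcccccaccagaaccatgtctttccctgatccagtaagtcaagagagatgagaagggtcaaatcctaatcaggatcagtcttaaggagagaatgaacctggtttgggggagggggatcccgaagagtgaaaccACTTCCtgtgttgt
The capitals begin 14 bases before the start. ETS factors such as Etv5 act in spermatogonia, and the letters GGAAGT were found on either strand in 19.7% of 32851 promoters cut to the same 250 bases. The window held 4 CpG dinucleotides, with a median of 6 over all promoters, and 52% of its bases were G or C. It held 1 GC box (GGGCGG, in 32.7% of promoters) and no E-box (CANNTG, 66.2%) or TATAAA (12.4%) on either strand.

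Gngt2 lies on chromosome 11, 95837216 to 95845734 on the plus strand, and shares 234 exonic bases with Abi3 on the opposite strand. The library kit marks strand, but use of strand in counting is not given in the sources used here, so reads of the shared part cannot be told apart. Gngt2 stood at 104.6 and 75.8 RPKM in P3 Ctrl, 45.7 and 31.8 in P3 WT, 102.4 and 54.4 in P3 Jmjd1bKO, 59.3 and 54.2 in P3 Jmjd1aKO and 27.7 and 31.4 in P3 DKO. At day 7 it stood at 12.6 and 14.8 RPKM in P7 Ctrl and 3.84 and 2.24 in P7 DKO. The P3 WT libraries lay well below the P3 Ctrl libraries, and the higher P3 DKO library nearly reached the lower P3 WT library. The order was P3 Ctrl, P3 Jmjd1bKO, P3 Jmjd1aKO, P3 WT, P3 DKO, P7 Ctrl and P7 DKO, in which P3 Jmjd1bKO overlapped both P3 Ctrl and P3 Jmjd1aKO.

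Exoc3l lies on chromosome 8, 105289924 to 105296101 on the minus strand, and shares 531 exonic bases with the antisense gene Gm20163, which has no row in the files used here. Its level was 13.7 and 12.5 RPKM in P3 Ctrl, 7.68 and 6.39 in P3 WT, 11.8 and 11.2 in P3 Jmjd1bKO, 9.43 and 9.36 in P3 Jmjd1aKO and 3.20 and 3.52 in P3 DKO. At day 7 it was 3.11 and 3.42 RPKM in P7 Ctrl and 0.679 and 0.708 in P7 DKO. Replicates were close in every group. In the order P3 Ctrl, P3 Jmjd1bKO, P3 Jmjd1aKO, P3 WT, P3 DKO, P7 Ctrl and P7 DKO, the single pair of neighbours to overlap was P3 DKO with P7 Ctrl.

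Ifi27l2a lies on chromosome 12, 103442167 to 103443680 on the minus strand, with 1 annotated transcript of 463 nucleotides. Its level was 13.2 and 14.6 RPKM in P3 Ctrl, 8.93 and 13.0 in P3 WT, 13.5 and 16.2 in P3 Jmjd1bKO, 4.22 and 10.3 in P3 Jmjd1aKO and 2.09 and 3.87 in P3 DKO. At day 7 it was 5.87 and 8.58 RPKM in P7 Ctrl and 0.305 and 0.159 in P7 DKO, which correspond to about 2 and 1 fragments. The P3 Jmjd1aKO replicates lay far apart, and the higher value belongs to the library with high Sertoli transcripts. From P3 Jmjd1bKO the means fell through P3 Ctrl, P3 WT, P3 Jmjd1aKO, P7 Ctrl and P3 DKO to P7 DKO. P3 Jmjd1bKO overlapped P3 Ctrl in this order, P3 WT overlapped P3 Jmjd1aKO, and P3 Jmjd1aKO overlapped P7 Ctrl.

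**Figure D1:**
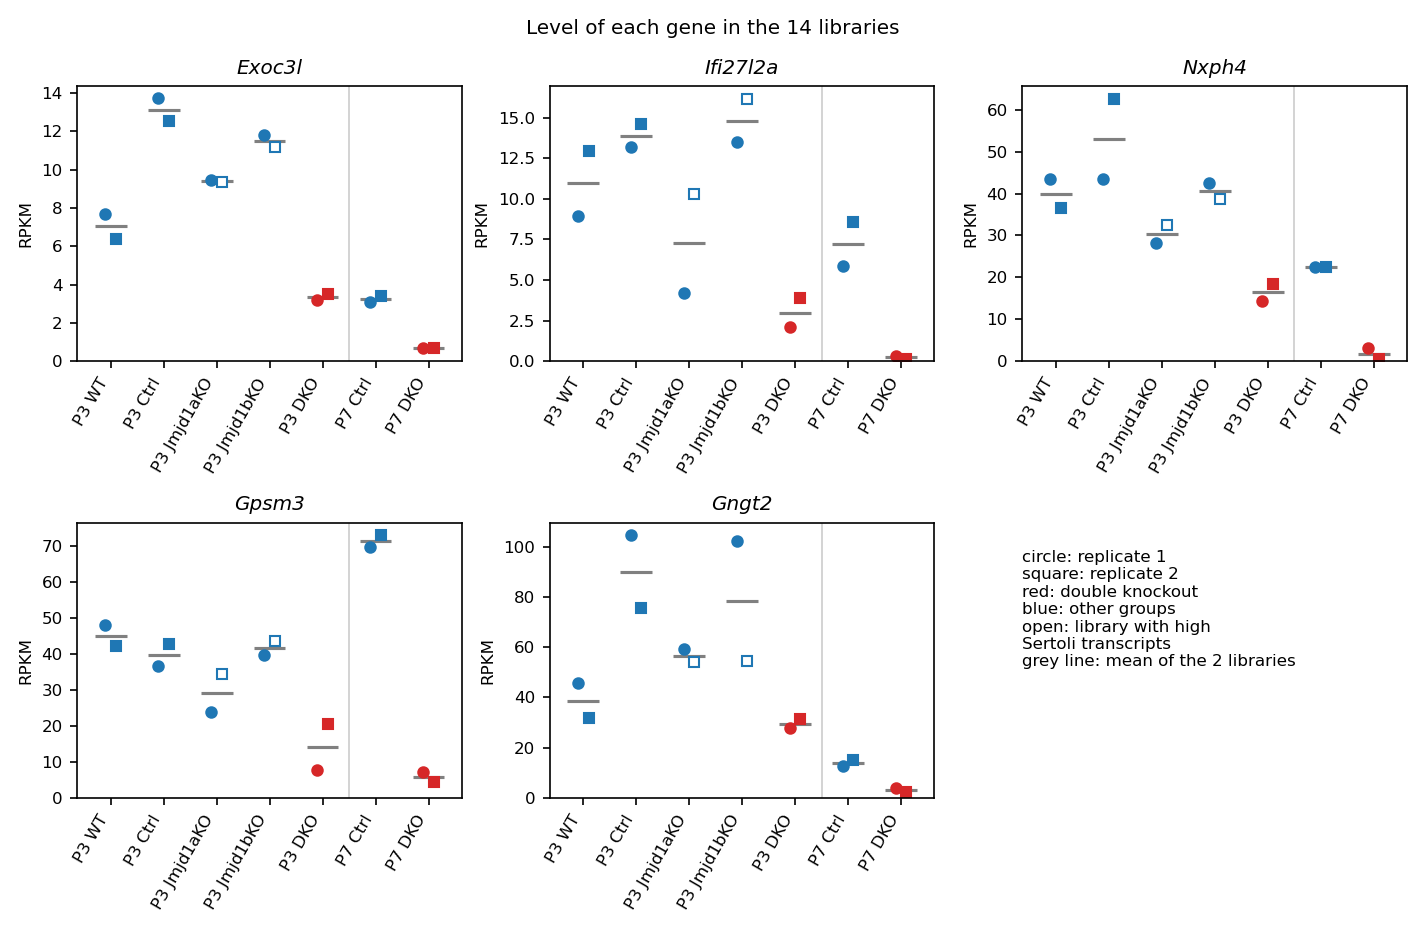
RPKM of each of the 5 genes in the 14 libraries, by group, with 2 libraries and their mean in each group. P3 DKO libraries lie below the other day 3 libraries in all 5 panels, and P7 DKO libraries lie lowest of all. Against P3 Ctrl the place of P3 DKO follows from the choice of the genes, and low P3 DKO values also shape its place below the other day 3 groups. Both P3 DKO libraries lay below both P3 Ctrl libraries for 27.9% of all genes, and below both P3 WT libraries for 38%. Both P7 DKO libraries lay below both P7 Ctrl libraries for 35.4%, and below both P3 DKO libraries for 41.4%. The shares of all genes with P3 DKO below the single knockouts, or with P7 DKO lowest of all groups, were not computed. For Gngt2 the gap to P3 WT is narrow, 31.4 beside 31.8 RPKM. The P7 Ctrl level of Gpsm3, at 69.8 and 73.1 RPKM, is the highest of its panel.

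The next question was which single loss already goes with lower levels. Beside P3 Ctrl, whose libraries took part in the choice and allow a description only, both P3 Jmjd1aKO libraries lay below both P3 Ctrl libraries for all 5 genes, as they did for 18.1% of all genes tested. The log2 changes were -0.76 ± 0.35 (SE) for Nxph4, -0.46 ± 0.36 for Gpsm3, -0.64 ± 0.30 for Gngt2, -0.44 ± 0.13 for Exoc3l and -0.95 ± 0.35 for Ifi27l2a. Both P3 Jmjd1bKO libraries lay below both P3 Ctrl libraries for Nxph4 and Exoc3l (11.6% of all genes), and the log2 changes were -0.36 ± 0.35 for Nxph4, 0.07 ± 0.36 for Gpsm3, -0.25 ± 0.30 for Gngt2, -0.18 ± 0.13 for Exoc3l and 0.08 ± 0.35 for Ifi27l2a. In P3 DKO, against the same controls, they were -1.62, -1.57, -1.56, -1.70 and -1.94 in the same order of genes. These 3 sets of values share the P3 Ctrl libraries, and a high P3 Ctrl value lowers all of them.

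Wild type differed from P3 Ctrl for some of the genes. P3 WT libraries lay below both P3 Ctrl libraries for Nxph4, Gngt2, Exoc3l and Ifi27l2a (34% of all genes), with log2 changes of -0.38, -1.20, -0.82 and -0.34, and Gpsm3 overlapped (0.18 ± 0.36). Both P3 DKO libraries lay below both P3 WT libraries for all 5 genes, as for 38% of all genes, with log2 changes of -1.24 for Nxph4, -1.75 for Gpsm3, -0.36 for Gngt2, -0.88 for Exoc3l and -1.60 for Ifi27l2a. Gngt2 thus stood in P3 DKO at 76.3% of its P3 WT mean but at 32.8% of its P3 Ctrl mean. Low P3 DKO values took part in the choice of the genes, so the comparison with P3 WT is a description too.

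Single knockouts were tested against P3 WT, a comparison that spans Vasa-Cre and the lost copy of the other gene as well. In P3 Jmjd1aKO none of the 5 genes passed limma's test, while 12% of all genes were lower and 12.8% higher. An unadjusted p under 0.05 was found for 1 of the 5 (Exoc3l, higher) and for 6018 of all 14772 genes. The log2 changes were -0.38 ± 0.35 for Nxph4 (adjusted p = 0.426), -0.64 ± 0.36 for Gpsm3 (0.215), 0.56 ± 0.30 for Gngt2 (0.196), 0.38 ± 0.13 for Exoc3l (0.053) and -0.62 ± 0.35 for Ifi27l2a (0.218). With replicate 2 of both single knockouts left out Ifi27l2a was lower in P3 Jmjd1aKO than in P3 WT by limma, at a log2 change of -1.17 (adjusted p = 0.0286 without both, and 0.0352 without replicate 2 of P3 Jmjd1aKO alone), which rests on 1 library assumed to vary like the other groups. The other 4 genes did not pass without the pair, with log2 changes of -0.48 for Nxph4, -0.89 for Gpsm3, 0.62 for Gngt2 and 0.38 for Exoc3l.

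In P3 Jmjd1bKO Exoc3l was higher than in P3 WT by a log2 change of 0.64 ± 0.13 (adjusted p = 0.0349, limma), where 1.51% of all genes were higher and 1.93% lower. That call was lost without either library of either group (adjusted p from 0.0579 to 0.2) and held without the pair with high Sertoli transcripts (0.039). The other genes did not pass, with 0.02 ± 0.35 for Nxph4 (adjusted p = 0.975), -0.11 ± 0.36 for Gpsm3 (0.869), 0.95 ± 0.30 for Gngt2 (0.102) and 0.42 ± 0.35 for Ifi27l2a (0.476). Gngt2 passed as higher without the pair with high Sertoli transcripts, at a log2 change of 1.40 (adjusted p = 0.0337), but not without replicate 2 of P3 Jmjd1bKO alone (0.0537), and both values rest on 1 P3 Jmjd1bKO library assumed to vary like the other groups.

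Set directly against each other, the single knockouts did not differ past the threshold in any of the 5 genes by limma. Past the threshold, 0.0135% of all genes were lower in P3 Jmjd1aKO than in P3 Jmjd1bKO and 0.0203% higher. An unadjusted p under 0.05 was found for 1 of the 5 (Ifi27l2a) and for 1526 of all 14772 genes. The log2 difference, P3 Jmjd1aKO minus P3 Jmjd1bKO, was -0.41 for Nxph4 (95% interval -1.18 to 0.37, adjusted p = 0.745), -0.53 for Gpsm3 (-1.34 to 0.29, adjusted p = 0.667) and -0.39 for Gngt2 (-1.07 to 0.29, adjusted p = 0.715). For Exoc3l it was -0.26 (-0.54 to 0.02, adjusted p = 0.506) and for Ifi27l2a -1.04 (-1.83 to -0.24, unadjusted, with an adjusted p of 0.367). Both P3 Jmjd1aKO libraries lay below both P3 Jmjd1bKO libraries for Nxph4, Gpsm3, Exoc3l and Ifi27l2a, as for 16.3% of all genes tested, and Gngt2 overlapped. Without the pair with high Sertoli transcripts the differences were -0.57 for Nxph4, -0.72 for Gpsm3, -0.78 for Gngt2, -0.29 for Exoc3l and -1.47 for Ifi27l2a, and none passed (adjusted p from 0.517 to 0.838 in limma). An adjusted p that misses the threshold does not show that the single losses act alike.

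**Figure D2:**
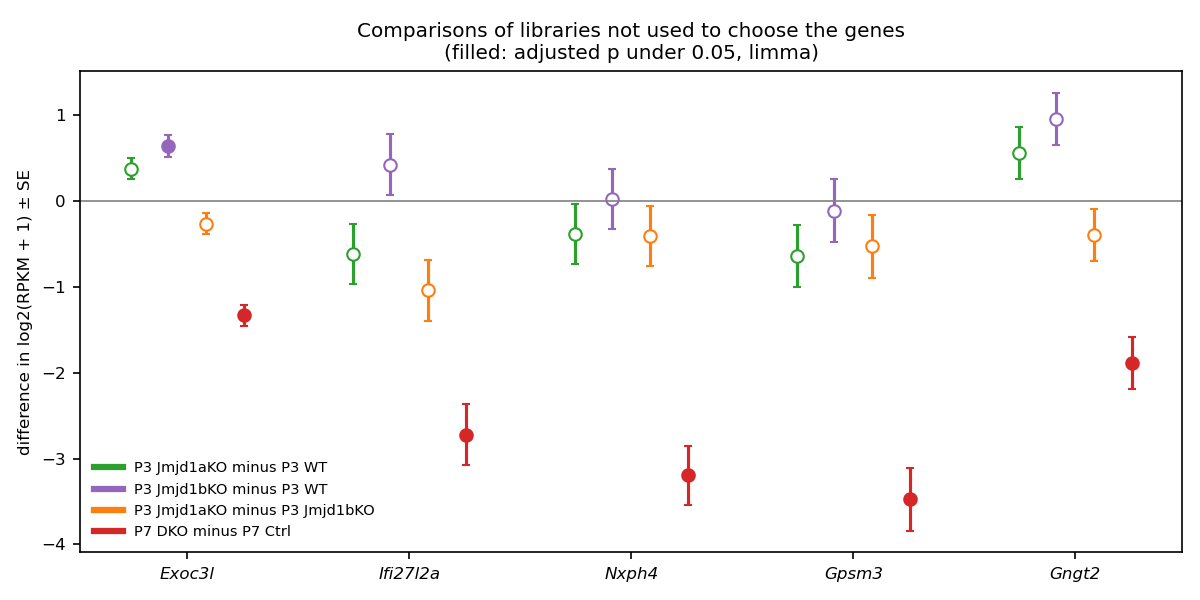
Log2 difference in RPKM + 1 (± SE, 2 libraries a group) of the 5 genes in the comparisons that do not involve the libraries used to choose them, with filled points for an adjusted p under 0.05 in limma. All 5 day 7 differences are filled and lie between -1.33 and -3.47, and of the single knockout differences the rise of Exoc3l in P3 Jmjd1bKO, 0.64, is the one that is filled.

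At day 7, in libraries whose values the rule did not use, all 5 genes fell in DKO germ cells. Gpsm3 had a log2 change of -3.47 ± 0.36 (adjusted p = 0.000154) and kept 7.94% of its P7 Ctrl mean, and Nxph4 had one of -3.20 ± 0.35 (adjusted p = 0.000179) and kept 8.15%. The P7 DKO libraries of Nxph4 stood at 13.5% and 2.77% of the P7 Ctrl mean, and the log2 change was -3.85 without replicate 1 and -2.54 without replicate 2. Ifi27l2a changed by -2.72 ± 0.35 (adjusted p = 0.000473). Its estimated 3 fragments in P7 DKO, against 97 in P7 Ctrl, give a ratio of 3.20%, with an exact 95% interval of 0.649 to 9.63% that covers counting error only. Gngt2 changed by -1.89 ± 0.30 (adjusted p = 0.00141, 22.2% of P7 Ctrl) and Exoc3l by -1.33 ± 0.13 (adjusted p = 8.88e-05, 21.2% of P7 Ctrl). Both P7 DKO libraries lay below both P7 Ctrl libraries for all 5 genes, as for 35.4% of all genes. The count of 5 of 5 lower stands beside 16.1% of all genes lower in the same comparison, and 17.4% higher. It was 5 of 5 under each of the 10 other settings tried. Among the 14772 genes ordered from the largest log2 fall, Gpsm3 was number 29, Nxph4 number 38, Ifi27l2a number 77, Gngt2 number 204 and Exoc3l number 485. The order of the 5 depends on the pseudocount, since with 0.1 in place of 1 the log2 changes were -4.47 for Ifi27l2a, -3.90 for Nxph4, -3.68 for Gpsm3, -2.18 for Gngt2 and -2.08 for Exoc3l. In the same libraries all 12 markers of stem spermatogonia fell, with a summed level of 778 and 784 RPKM in P7 Ctrl and 188 and 70.2 in P7 DKO, and their part in the fall of the 5 genes was not tested. The log2 change of RPKM + 1 understates the ratio where levels are low.

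**Figure D3:**
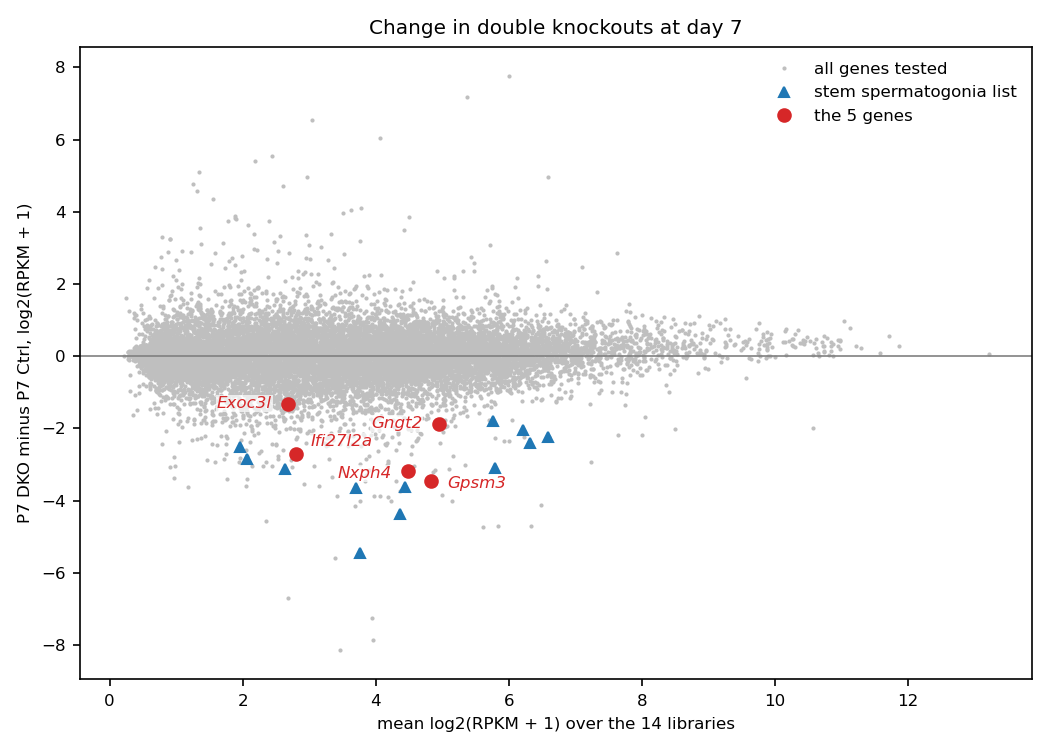
Each point is 1 of the 14772 genes tested, with its mean log2(RPKM + 1) over the 14 libraries on the horizontal axis and the log2 difference P7 DKO minus P7 Ctrl on the vertical axis. The 5 genes (red), between -1.33 and -3.47, and the 12 genes of the stem spermatogonia list (blue) all lie below 0.

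Levels also differed between the ages in the controls. From P3 Ctrl to P7 Ctrl the level of Gngt2 went from a mean of 90.2 to 13.7 RPKM (log2 change -2.62 ± 0.30), that of Exoc3l from 13.1 to 3.27 RPKM (-1.73 ± 0.13), that of Nxph4 from 53.0 to 22.4 RPKM (-1.18 ± 0.35) and that of Ifi27l2a from 13.9 to 7.22 RPKM (-0.88 ± 0.35). For these 4 genes both P7 Ctrl libraries lay below both P3 Ctrl libraries, as for 38.6% of all genes tested. Gpsm3 went the other way, from 39.6 to 71.5 RPKM (0.84 ± 0.36). From P3 DKO to P7 DKO all 5 were lower, which also held for 41.4% of all genes by the separation of libraries. The log2 changes were -2.76 ± 0.35 for Nxph4, -1.07 ± 0.36 for Gpsm3, -2.94 ± 0.30 for Gngt2, -1.36 ± 0.13 for Exoc3l and -1.66 ± 0.35 for Ifi27l2a. Since P3 Ctrl and P3 DKO libraries chose the genes, these age differences are descriptions.

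The share of the control level left in DKO cells was lower at day 7 than at day 3 for all 5 genes, by the largest factors for Ifi27l2a, Gpsm3 and Nxph4. It went from 30.9% to 8.15% for Nxph4, from 35.6% to 7.94% for Gpsm3, from 21.4% to 3.22% for Ifi27l2a, from 32.8% to 22.2% for Gngt2 and from 25.6% to 21.2% for Exoc3l. The day 3 share of Gpsm3 and the day 7 share of Nxph4 differ by over 1.5 times when 1 DKO library is left out, as given above. On the log2 scale of RPKM + 1 the fall of Exoc3l was smaller at day 7 (-1.33) than at day 3 (-1.70), and those of the other genes were larger. For Gngt2, replicate 1 of P7 DKO, at 28.1% of control, lay close to replicate 1 of P3 DKO, at 30.7%. The change between the ages was not tested, because the day 3 share was used to choose the genes. How many of all genes show such a change was not computed.

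The genes did not move as 1 block over the 14 libraries. The log2 levels of Exoc3l and Gngt2 had a Pearson r of 0.966 (Spearman's rho 0.982), the highest of the 10 pairs, and those of Gpsm3 and Gngt2 had the lowest, 0.573 (rho 0.226). The libraries share groups and ages, and the 5 genes were chosen for a common fall, so these values describe the pattern and carry no test. By the same measure the genes most like each of the 5 were, for Nxph4, Car6 (r 0.989, a secreted carbonic anhydrase), Tmc8 (0.984) and Myo18a (0.98). For Gpsm3 they were Pced1b (0.978), Sphk1 (0.976, a sphingosine kinase) and Dusp7 (0.962, a phosphatase of MAP kinases). Sphk1 had means of 44.1 RPKM in P3 Ctrl, 14.8 in P3 DKO, 84.8 in P7 Ctrl and 5.77 in P7 DKO, close to the course of Gpsm3. Gngt2 was most like Myl4 (0.984, a myosin light chain), Cadm4 (0.981) and Alpl (0.98, an alkaline phosphatase). Exoc3l was most like Gngt2, Gfra4 (0.964, a receptor of the GDNF family) and Fxyd2 (0.957), and Ifi27l2a was most like Ube3b (0.975), Cerk (0.958) and Was (0.956). A high r does not mean a change of like size. Ube3b had means of 30.0 RPKM in P3 Ctrl, 25.4 in P3 DKO, 27.2 in P7 Ctrl and 20.1 in P7 DKO.

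Relatives and partners of the 5 genes were taken from lists that were chosen with earlier results of these data known. In P3 DKO against P3 Ctrl, 2.29% of all genes were lower and 2.18% higher by limma. With shares this small, a short list in which few or none passed at day 3 says little about its genes. Beside the unadjusted counts given for these lists at day 3, 3623 of all 14772 genes had an unadjusted p under 0.05 in limma. Of 10 exocyst genes none passed limma's test in P3 DKO against P3 Ctrl (1 at an unadjusted p under 0.05), with a median log2 change of -0.05 beside 0.01 over all genes, and Exoc3, the subunit that Exoc3l resembles, stood at 30.1 ± 0.206 (SD, n = 2) in P3 Ctrl and 27.0 ± 0.428 RPKM in P3 DKO. At day 7, 1 of the 10 rose and 2 fell (median 0.07 beside 0.02 over all genes), close to the shares of 17.4% higher and 16.1% lower among all genes. Exoc6b fell from 13.5 to 7.48 RPKM (-0.78 ± 0.15 in log2, adjusted p = 0.00318), a call that held under all 10 other settings tried. Exoc5 rose from 10.2 to 17.8 RPKM (0.75 ± 0.23 in log2, adjusted p = 0.0294) and Exoc6 fell from 16.5 to 11.0 RPKM (-0.54 ± 0.12, adjusted p = 0.00894). The call of Exoc5 was lost without any 1 of the 4 day 7 libraries and with quantile normalization (adjusted p up to 0.151), and that of Exoc6 without replicate 1 of P7 Ctrl (0.0866).

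G protein partners of Gpsm3 and Gngt2 passed about as often as other genes at day 7, when 16.1% of all genes were lower and 17.4% higher, and 2 fell at day 3, when 2.29% were lower. Among 10 GoLoco and inhibitory alpha subunit genes, 2 fell and none rose in P3 DKO (median -0.17). Gnai2, an alpha subunit that GoLoco proteins bind, fell from 143 ± 20.9 to 75.7 ± 7.48 RPKM (-0.90 ± 0.17 in log2, adjusted p = 0.0284), and Rgs12, a GoLoco regulator of G protein signalling, fell from 24.4 to 16.7 RPKM (-0.52 ± 0.11, adjusted p = 0.0367). Both day 3 calls were lost without any 1 of the 4 libraries (adjusted p up to 0.193 for Gnai2 and 0.189 for Rgs12). At day 7, 2 of the 10 fell and 1 rose (median -0.06). Rgs12 fell from 24.8 to 11.5 RPKM (-1.05 ± 0.11, adjusted p = 0.000174), Rap1gap from 4.46 to 1.97 RPKM (-0.88 ± 0.18, adjusted p = 0.00458), and Gnai1 rose from 1.89 to 4.99 RPKM (1.03 ± 0.21, adjusted p = 0.00513). Those of Rgs12 and Rap1gap held under all 10 other settings, and that of Gnai1 was lost without replicate 1 of P7 Ctrl (0.0523). Of 12 beta and gamma subunit genes none passed in P3 DKO by limma (5 at an unadjusted p under 0.05, median 0.23). At day 7 Gnb4 fell by 0.87 on the log2 scale (adjusted p = 0.00127), Gnb2 fell by 0.42 (adjusted p = 0.0108) and Gng5, the gamma subunit with the highest level, rose by 0.44 (adjusted p = 0.0178, from 458 to 620 RPKM), while 9 of the 12 did not pass (median -0.08). The call of Gnb4 held under all 10 other settings, that of Gnb2 was lost without replicate 2 of P7 Ctrl (0.0798), and that of Gng5 was lost without any 1 of the 4 libraries and with quantile normalization (adjusted p up to 0.823).

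Of 17 genes of the Ifi27 family and the interferon response none passed in P3 DKO (5 at an unadjusted p under 0.05 in limma, median 0.23). Of all genes, 2.29% were lower and 2.18% higher there. Among the 17 was Ifi27, the neighbour of Ifi27l2a, at 26.0 ± 4.55 RPKM in P3 Ctrl and 14.5 ± 2.33 in P3 DKO (-0.79 ± 0.35 in log2, adjusted p = 0.198). At day 7, 4 of the 17 fell and 2 rose, with a median of -0.36 beside 0.02 over all genes and beside 16.1% of all genes lower and 17.4% higher. The largest falls were those of Oasl2, an interferon-induced relative of the oligoadenylate synthetases, from 6.90 to 1.14 RPKM (-1.89 ± 0.21 in log2, adjusted p = 0.000185), and Ifi27, from 25.4 to 7.16 RPKM (-1.71 ± 0.35, adjusted p = 0.00479). Xaf1, an interferon-induced factor linked to cell death, rose from 4.41 to 21.1 RPKM (2.01 ± 0.58, adjusted p = 0.0235). The falls of Oasl2 and Ifi27 held under all 10 other settings, and the rise of Xaf1 was lost without any 1 of the 4 libraries (adjusted p up to 0.119).

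Of the neurexophilins and neurexins, 3 were measured above the filter and none passed in P3 DKO (0 at an unadjusted p under 0.05 in limma, median 0.51). The shares of all genes there were 2.29% lower and 2.18% higher. Nrxn2, which encodes a neurexin, stood at 5.63 ± 0.194 RPKM in P3 Ctrl and 8.74 ± 0.984 in P3 DKO (0.55 ± 0.26 in log2, adjusted p = 0.222). At day 7 it fell from 7.18 ± 0.604 to 0.519 ± 0.0777 RPKM (-2.43 ± 0.26, adjusted p = 0.000163), the 1 gene of the 3 that passed, and that call held under all 10 other settings. Nxph4 and Nrxn2 thus both fell in P7 DKO, but at day 3 Nrxn2 was not among the lower genes.

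**Figure D4:**
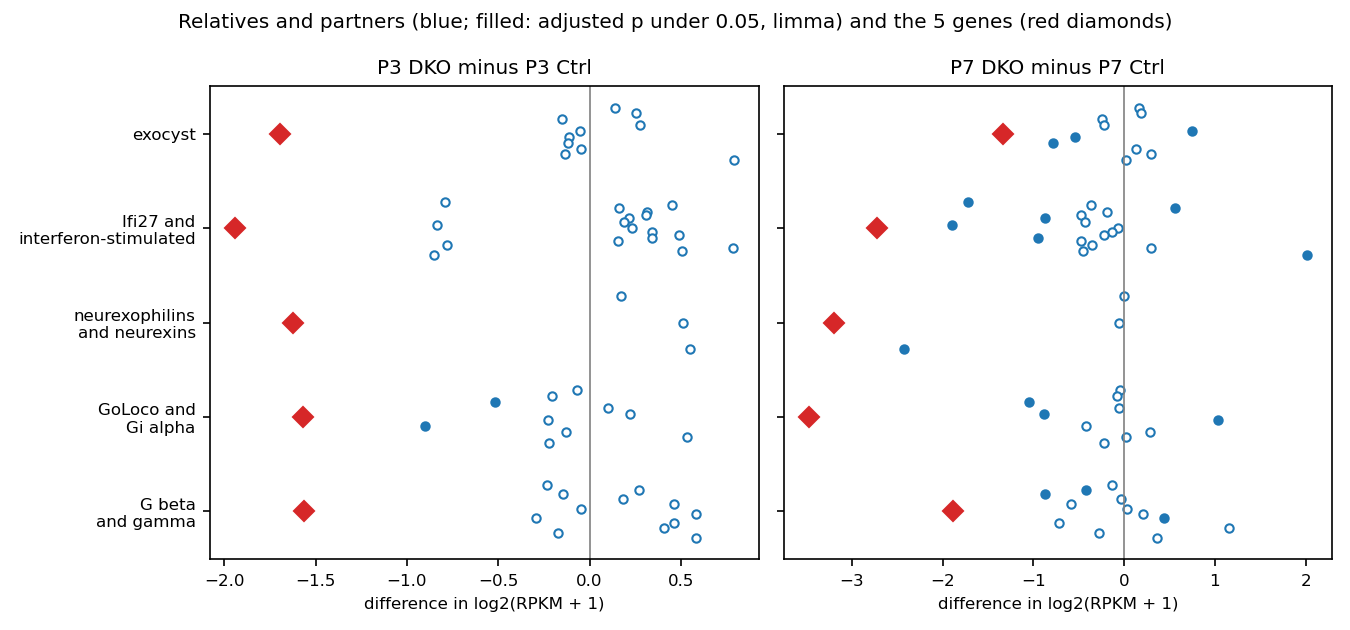
Log2 difference of the relatives and partners (blue, filled for an adjusted p under 0.05 in limma) and of the 5 genes (red diamonds) in DKO against control germ cells, at day 3 (left) and day 7 (right), with 1 row per list. At day 3 the 5 genes lie between -1.56 and -1.94, to the left of all their relatives, and at day 7 Nrxn2 (-2.43) has the largest fall of the relatives plotted. The diamonds at day 3 show the values that chose the genes.

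Genes next to the 5 in the genome gave a mixed picture. Shmt2, a mitochondrial enzyme of serine metabolism that lies 3029 bases from Nxph4, fell from 129 to 58.9 RPKM in P3 DKO (-1.11 ± 0.14 in log2, adjusted p = 0.0121) and from 100.7 to 58.4 RPKM in P7 DKO (-0.78 ± 0.14, adjusted p = 0.00268), while Lrp1 on the other side passed at neither age by limma (adjusted p = 0.803 and 0.0999). The day 7 call of Shmt2 held under all 10 other settings, and the day 3 call was lost without replicate 2 of P3 Ctrl or of P3 DKO (up to 0.0999). Ifi27, 1928 bases from Ifi27l2a, fell at day 7 as given above, and Ifi27l2b on its other side was hardly detected, with a mean of 0.175 RPKM in P3 Ctrl. Pbx2, which overlaps Gpsm3, did not pass in P3 DKO (0.18 ± 0.15, adjusted p = 0.495) and fell from 112 to 65.7 RPKM in P7 DKO (-0.76 ± 0.15, adjusted p = 0.00415), a smaller change than that of Gpsm3. Abi3, which overlaps Gngt2, stood at 19.4 RPKM in P3 Ctrl and 7.80 in P3 DKO (-1.19 ± 0.31, adjusted p = 0.0585) and fell in P7 DKO (-1.02 ± 0.31, adjusted p = 0.0292), a call lost without any 1 of the 4 libraries, with quantile normalization or with no filter (adjusted p up to 0.157). Beside Exoc3l, 4931428F04Rik (0.35 ± 0.13, adjusted p = 0.141) and E2f4 (-0.35 ± 0.13, adjusted p = 0.13) did not pass in P3 DKO. 4931428F04Rik fell at day 7 (-0.70 ± 0.13, adjusted p = 0.00301) and E2f4 rose (0.56 ± 0.13, adjusted p = 0.00806, lost without replicate 2 of either group, up to 0.073). Zfp652, to the left of Gngt2, passed at neither age (-0.30 ± 0.23, adjusted p = 0.47 at day 3, and 0.51 ± 0.23, adjusted p = 0.117 at day 7). The noncoding 4833417C18Rik near Gngt2 fell in P3 DKO (-0.87 ± 0.20, adjusted p = 0.045) and rose in P7 DKO (1.05 ± 0.20, adjusted p = 0.00364), and its day 3 call was lost without any 1 of the 4 libraries and with a pseudocount of 0.1 (adjusted p up to 0.259). Notch4 and Ager beside Gpsm3 stayed below 2 RPKM in the control and DKO means.

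Markers of cell states moved in the same comparisons. Of 12 genes of stem spermatogonia, such as Foxc2, Eomes and Plvap, all 12 fell in P7 DKO (median log2 change -2.97 beside 0.02 over all genes), also without that pair of libraries rich in Sertoli transcripts, the setting without it having been added after the data were seen. At day 3 their summed level was 622 to 677 RPKM in P3 Ctrl, 588 to 613 in P3 WT, 509 to 710 in P3 Jmjd1bKO, 383 to 434 in P3 Jmjd1aKO and 363 to 397 in P3 DKO, with Pax7 higher and Plvap lower of the 12 in P3 DKO, calls that were lost without any 1 of the 4 libraries (adjusted p up to 0.159 and 0.215). Against P3 WT, by contrast with the lower sum, limma called 3 of the 12 higher and none lower in P3 Jmjd1aKO (median -0.46). Of all genes 12.8% were higher there. In P3 Jmjd1bKO 1 of the 12 was higher and none lower (median -0.07), beside 1.51% of all genes higher. In these comparisons 5 and 3 of the 12 had an unadjusted p under 0.05, beside 6018 and 3673 of all 14772 genes. Of 8 genes of differentiating spermatogonia, 1 rose and 2 fell in P3 DKO, and 4 rose and 1 fell in P7 DKO. Of all genes 2.18% were higher and 2.29% lower at day 3, and 17.4% and 16.1% at day 7. The sum of the 8 was 448 and 415 RPKM in P3 Ctrl, 366 and 330 in P3 DKO, 367 and 370 RPKM in P7 Ctrl and 745 and 835 in P7 DKO. The part of these shifts in the levels of the 5 genes was not tested.

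Markers of endothelium and blood cells were examined because genes such as Gpsm3 and Ifi27l2a are also known from leukocytes. The summed level of 20 endothelial genes was 165 to 176 RPKM in P3 Ctrl and 108 to 127 in P3 DKO, with Sox18 and Ramp2 lower and Tek higher of the 15 tested (each lost without any 1 of the 4 libraries, adjusted p up to 0.155, 0.217 and 0.256), and 73.0 to 75.1 RPKM in P7 Ctrl and 44.6 to 53.2 in P7 DKO, with 6 of 15 lower beside 16.1% of all genes. Of 15 leukocyte genes the sum was 118 to 148 RPKM in P3 Ctrl, 84.9 to 85.9 in P3 DKO, 43.1 to 44.8 in P7 Ctrl and 19.7 to 27.4 in P7 DKO, with none of 11 passing at day 3 by limma (2 at an unadjusted p under 0.05) and Fcer1g and Coro1a lower at day 7, of which Coro1a was lost under 6 of the 10 other settings (adjusted p up to 0.319). Over the 14 libraries the highest means of this list were 42.7 RPKM for Coro1a and 32.2 for Fcer1g, and 10 of the 15 had means under 1 RPKM, among them Ptprc (0.253), Csf1r (0.182) and Adgre1 (0.0654). Of the 20 endothelial genes, Ramp2 (39.0) and Egfl7 (24.8) had the highest means, and 7 had means under 1 RPKM, from Clec14a (0.0197) to Cldn5 (0.966). None of 12 Sertoli genes passed in P3 DKO or P7 DKO (0 at an unadjusted p under 0.05 in limma at either age). Nor did any of 5 Leydig or 4 erythroid genes (also 0). Of 7 stromal genes none passed in P3 DKO (0 at an unadjusted p under 0.05 in limma) and 2 fell in P7 DKO. The spread in these tests includes the pair with high Sertoli transcripts, so a miss says little about somatic markers. The Sertoli sum was 120 to 130 RPKM in P3 Ctrl and 157 to 170 in P3 DKO. At day 7 it was 243 to 263 RPKM in P7 Ctrl and 211 to 328 in P7 DKO. The sum of 8 stromal genes was 11.4 to 13.5 RPKM in P3 Ctrl and 22.0 to 22.3 in P3 DKO. It was 19.1 RPKM in both P7 Ctrl libraries and 6.19 to 6.84 in P7 DKO. Of 8 germ cell genes none passed in P3 DKO by limma (0 at an unadjusted p under 0.05). In P7 DKO 5 fell and 1 rose, beside 16.1% of all genes lower and 17.4% higher. Of all 14772 genes, 3623 in P3 DKO and 6444 in P7 DKO had an unadjusted p under 0.05 in limma. In P3 WT the endothelial and leukocyte sums were also below P3 Ctrl, at 106 to 119 and 87.2 to 89.7 RPKM. In the same order they were 124 to 144 and 119 to 134 RPKM in P3 Jmjd1aKO, and 120 to 180 and 102 to 149 in P3 Jmjd1bKO. The part of the endothelial and leukocyte sums in the levels of the 5 genes was not tested.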

How the data were processed

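RNA libraries of 14 samples were made with a stranded mRNA kit, per the labels' protocols. The deposited values are RPKM, made by the authors per gene symbol, and the submitters' processing notes name TopHat2 2.1.1, Cufflinks 2.1.1 and the mm10 build. How strand was used in counting and the annotation are not given in the sources used here. Values were used as log2(RPKM + 1). The filter kept genes that reached 1 RPKM in 2 or more libraries (14772 tested, 9568 removed). One linear model with a mean for each group was fitted to the 14 libraries (limma 3.58.1, moderated with a trend, R 4.3.3, 7 residual degrees of freedom), two-sided, with Benjamini-Hochberg adjustment over all genes and a threshold of 0.05. The pseudocount understates the change of genes with low levels.

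The members and lists were chosen with earlier results of these data known. Genes named are the 5 members, for each the 3 genes with the highest Pearson r (predicted and small RNA genes left out), the nearest and overlapping genes, and from each list up to 3 that passed with the largest changes, or else those with the highest mean. Names of list genes outside that rule were chosen after their values were seen. Listed symbols without a row were Exoc3l2 and Ifi27l1.

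The files used here hold no counts. Depth was estimated from the steps between low RPKM values of genes with 1 annotated transcript, and 79.4 to 84.5% of the values used came to whole fragments to within 0.2, beside 40% by chance. Gene positions come from GENCODE M21 (GRCm38), which held 23306 of the 24340 symbols, and the promoter from RefSeq, whose table matched 1 of the 5 genes. In simulated data for the day 7 comparison with 14772 genes, 100 genes were given a log2 change of -1 and 100 one of -2. They were drawn from genes with higher mean levels, and 66% and 91% were recovered, with 5 false calls. The other genes had no group difference, and noise was independent between genes, so these rates do not carry over to the real data. No libraries held identical values. Alternatives were another pseudocount, no filter, quantile normalization, median-centring, replicate number as a block, leaving out each library, and leaving out the pair with high Sertoli transcripts.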

Additional observations from a re-analysis of the deposited data

Results flagged for a closer look

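Gpsm3 moved in opposite directions with age in the 2 genotypes. Both P7 Ctrl libraries (69.8 and 73.1 RPKM) lay above both P3 Ctrl libraries (36.6 and 42.7), a log2 change of 0.84, while both P7 DKO libraries (7.07 and 4.27) lay below both P3 DKO libraries (7.64 and 20.6), a log2 change of -1.07. The difference between these changes is -1.90. It was not tested, because P3 Ctrl and P3 DKO libraries were used to choose the gene.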

How the results depend on the processing

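The day 7 falls of all 5 genes kept their direction and stayed past the threshold in each of the 10 alternatives, 50 of 50 values. Single knockout differences were less settled. For Nxph4 in P3 Jmjd1bKO against P3 WT (0.02) the sign turned with median-centring (-0.017), without replicate 1 of P3 Jmjd1bKO (-0.044) and without replicate 2 of P3 WT (-0.098), with 0.15 the highest value without 1 library, and for Gngt2 in P3 Jmjd1aKO against P3 Jmjd1bKO (-0.39) without replicate 1 of P3 Jmjd1bKO (0.058, with -0.84 the lowest). The labels do not say that replicate numbers pair samples. Deviations of same-numbered libraries correlated at 0.00484 between P7 DKO and P7 Ctrl, and at 0.134 between P3 DKO and P3 Ctrl. Between P3 WT and P3 Jmjd1aKO or P3 Jmjd1bKO the values were 0.0511 and 0.00836. The value was 0.581 between the single knockouts, where both replicates 2 are the pair with high Sertoli transcripts. With the replicate number as a block Exoc3l passed as higher in P3 Jmjd1aKO against P3 WT (adjusted p = 0.0481), and the counts of genes past the threshold were 1115 in P3 Jmjd1bKO against P3 WT (508 without the block) and 1140 in P3 DKO against P3 Ctrl (661). Without the pair with high Sertoli transcripts these were 1754 and 1931, and 13 (from 5) between the single knockouts. In P3 DKO the count was 365 with a pseudocount of 0.1 and 1541 with no filter (1046 higher, 495 lower, against 322 and 339). Median-centring gave 277 higher and 503 lower there, 178 and 375 in P3 Jmjd1bKO against P3 WT (223 and 285), and 1536 and 2176 in P3 Jmjd1aKO against P3 WT (1898 and 1771). Quantile normalization gave 131 and 302, and 1165 and 1806, in those last comparisons. Leaving out 1 library gave counts from 2619 to 4427 at day 7 (4954, and 2619 and 2674 without a P7 Ctrl library), 972 to 3161 in P3 Jmjd1aKO against P3 WT (3669, and 972 to 1275 without either P3 WT library or replicate 1 of P3 Jmjd1aKO), 5 to 63 in P3 Jmjd1bKO against P3 WT, 5 to 7 between the single knockouts and 10 to 150 in P3 DKO. These fits assume that the lone library varies like the other groups. Of the list genes and neighbours named as passing, tried under the same settings after the data were seen, 12 of 21 held throughout at day 7 and 0 of 9 at day 3, and none turned. The cause was not tested. Depth limits Ifi27l2a in P7 DKO, at about 3 fragments in both libraries together.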
